A study of Mus musculus with 9 samples.

Results

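In mouse embryonic stem cells given MTX, 2 chromatin immunoprecipitations with an antibody to KDM6A were compared with 1 immunoprecipitation by IgG, an antibody with no intended target that measures how much chromatin is recovered without one. Touching or overlapping intervals of the 3 deposited lists were merged into 57584 regions. The comparison covered 19073 of them: 3070 held by both KDM6A lists and not by IgG, 13129 held by IgG alone and 2874 held by all 3 lists. The other regions, held by 1 KDM6A list alone or by 1 KDM6A list and IgG, were used as a yardstick.

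The study sequenced immunoprecipitated DNA (ChIP-seq) of the cell line Sv129, labelled as embryonic stem cells from embryo. All 3 libraries came from cells to which 0.12 µM MTX had been added 24 h before collection, and their labels give the genotype as folate deficiency and the treatment as neurodevelopment. The other 2 KDM6A libraries used here, KDM6A control 1 and 2, came from cells labelled WT with the same treatment entry. The titles mark those samples with C, which was read as control. All cells grew on gelatin in medium with leukemia inhibitory factor and serum, and all libraries were amplified over 30 cycles. The labels do not state whether the libraries were prepared from separate cultures, so any spread between them may be technical. An interval list holds no expression values, so the labelled cell type could not be checked by its markers, and no library lacked KDM6A, so the specificity of the antibody was not tested.

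KDM6A, also called UTX, removes methyl groups from lysine 27 of histone H3, a mark that Polycomb repressive complexes place on silent developmental genes. It is a subunit of the KMT2C and KMT2D complexes, which methylate lysine 4 of the same histone at enhancers. In stem cells it is known for its part in the activation of developmental genes during differentiation. An IgG library shows which stretches of chromatin are recovered without regard to the target, such as open or easily sheared chromatin and sequences with many copies.

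Sequences of the regions themselves were not used here, but RefSeq promoters (GRCm38.p6, the assembly also called mm10) gave the 250 bases before gene starts that lay inside them. Each sequence below shows 1 gene start for a set, was chosen after the values were seen, and is printed 5′ to 3′ on the strand of its gene. Capitals mark GGGCGG (a GC box), CCAAT or TATAAA on either strand. Gsk3b, a kinase that marks β-catenin for destruction, and Olfr389, an olfactory receptor of a multigene family, lay in regions of both KDM6A lists without IgG. Sox2, a core pluripotency factor, lay in a region of IgG alone. Nanog, another core pluripotency factor, lay in a region of all 3 lists.
Gsk3b, chr16:38088751-38089000, plus strand: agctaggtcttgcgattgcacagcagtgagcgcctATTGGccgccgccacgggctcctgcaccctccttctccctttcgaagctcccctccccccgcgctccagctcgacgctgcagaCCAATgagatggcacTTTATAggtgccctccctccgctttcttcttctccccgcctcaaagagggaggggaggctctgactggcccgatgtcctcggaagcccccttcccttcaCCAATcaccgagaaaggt
Olfr389, chr11:73780590-73780839, minus strand: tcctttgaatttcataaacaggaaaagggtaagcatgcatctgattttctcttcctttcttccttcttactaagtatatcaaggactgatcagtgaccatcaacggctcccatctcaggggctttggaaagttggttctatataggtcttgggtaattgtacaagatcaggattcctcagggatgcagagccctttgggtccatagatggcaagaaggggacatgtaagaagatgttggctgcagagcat
Sox2, chr3:34649745-34649994, plus strand: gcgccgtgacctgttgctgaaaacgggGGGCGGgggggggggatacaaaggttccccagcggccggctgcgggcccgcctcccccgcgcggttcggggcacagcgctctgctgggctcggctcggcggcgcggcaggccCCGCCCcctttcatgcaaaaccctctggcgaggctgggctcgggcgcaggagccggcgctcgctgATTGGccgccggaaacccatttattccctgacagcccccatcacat
Nanog, chr6:122707239-122707488, plus strand: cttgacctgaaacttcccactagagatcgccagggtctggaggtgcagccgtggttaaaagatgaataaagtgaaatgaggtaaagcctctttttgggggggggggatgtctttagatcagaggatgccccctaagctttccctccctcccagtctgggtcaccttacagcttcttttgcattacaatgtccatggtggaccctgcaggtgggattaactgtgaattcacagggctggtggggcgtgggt
The 250 bases before Sox2 were 72% G or C and held 2 GC boxes, whereas those before Olfr389 were 43.6% G or C and held none of the 3 motifs. Those before Gsk3b were 62% G or C and held 3 CCAAT and 1 TATAAA, and those before Nanog were 52.0% G or C with none. Among all 21263 promoters of protein-coding genes, 42.6% held GGGCGG, 35.4% CCAAT and 11.6% TATAAA. A match is a description of the letters and not a binding site.

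KDM6A list 1 had 24177 intervals holding 3251202 immunoprecipitated reads, KDM6A list 2 had 28976 holding 4192029, and the IgG list had 22843 holding 3513697. The 3 lists were thus of similar size, and IgG recovered nearly as many intervals as either KDM6A library. The median deposited fold over background was 1.431, 1.499 and 1.492, and the deposited adjusted p was under 0.05 in 78.7%, 83.7% and 83.7% of intervals. Neither the number of intervals nor their enrichment set the KDM6A libraries apart from IgG. KDM6A list 1 and IgG had the same background count in 52 of the 52 intervals they shared with identical ends, against 2 of 52 for KDM6A list 2 and IgG, so the first pair is read as having 1 background library in common.

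The KDM6A lists had about as many regions in common with IgG as with each other. Of the regions with KDM6A 1, 26.0% also held KDM6A 2 and 23.6% also held IgG. Of those with KDM6A 2, 21.6% held KDM6A 1 and 21.8% held IgG. Of the IgG regions, 24.98% held KDM6A 1, 27.7% held KDM6A 2 and 60.6% (exact 95% interval 59.98 to 61.3) held neither. Where both KDM6A lists had a region, IgG had it too in 48.4% (47.1 to 49.6). These intervals, here and below, are Clopper-Pearson and cover counting error only.

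The pair of KDM6A libraries gave a number of regions between those of the pairs of 1 KDM6A library and IgG. Regions of both KDM6A lists without IgG made up 3070 (5.33% of all regions), those of KDM6A 1 and IgG without KDM6A 2 made up 2535, and those of KDM6A 2 and IgG without KDM6A 1 made up 3113. With each list shortened to its best 22843 intervals by deposited p, the 3 numbers were 2219, 3085 and 2604, and both KDM6A libraries had more regions in common with IgG than with each other. KDM6A 1 then had 19.1% of its regions in common with KDM6A 2 and 23.1% with IgG. KDM6A 2 had 18.97% in common with KDM6A 1 and 20.7% with IgG. The part of the background library that KDM6A 1 and IgG are read as sharing was not tested. No test between the antibodies was made, because the smallest p that an exact permutation of 2 libraries against 1 allows is 0.333.

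**Figure D1:**
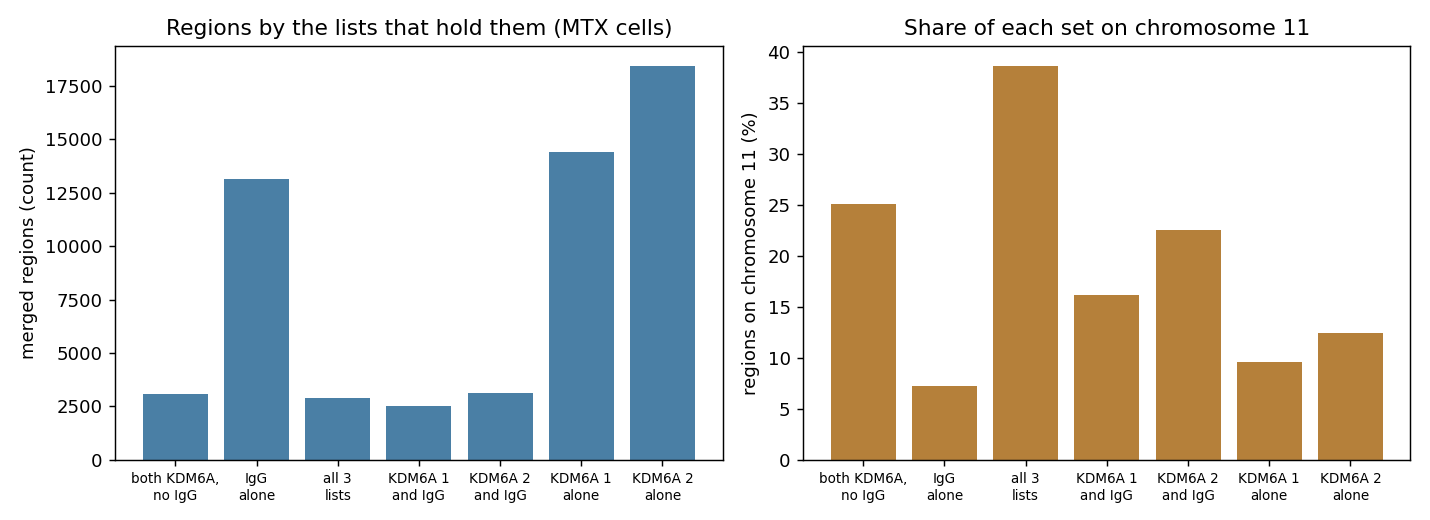
Left, number of merged regions (count) by the lists that hold them; right, the share of each set on chromosome 11 (%). The 3 sets held by exactly 2 lists are of similar size, between 2535 and 3113 regions, whether or not IgG is one of the 2, and the share on chromosome 11 is highest for regions of all 3 lists.

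Regions of IgG alone had the highest median read ratio of the sets before depth scaling. The ratio was log2((reads + 1)/(background reads + 1)), with reads summed over a library's own intervals in a region. At regions of both KDM6A lists without IgG its median was 0.38 (quartiles 0.16 to 0.63) in KDM6A 1 and 0.33 (0.09 to 0.61) in KDM6A 2. At regions of IgG alone it was 0.60 (0.34 to 0.89) in the IgG library. Regions held by 1 list are compared here with regions held by more, and those of KDM6A 1 alone and KDM6A 2 alone had medians of 0.47 and 0.48. On the log2 deposited fold, which is scaled for depth, the gap nearly closed for KDM6A 2: the median was 0.66 for IgG alone, 0.65 for KDM6A 2 alone and 0.57 for KDM6A 1 alone. Without depth scaling, a log2 ratio of at least 1 was reached by 18.2% of regions of IgG alone. For regions of KDM6A 1 alone and KDM6A 2 alone the shares were 11.97% and 13.5%. Of regions of both KDM6A lists without IgG, 7.10% and 6.64% reached that ratio in the separate libraries. Only 29 of those 3070 regions, 0.945%, reached it in both KDM6A libraries. The same values were used to call the intervals, so these are descriptions of the sets.

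**Figure D2:**
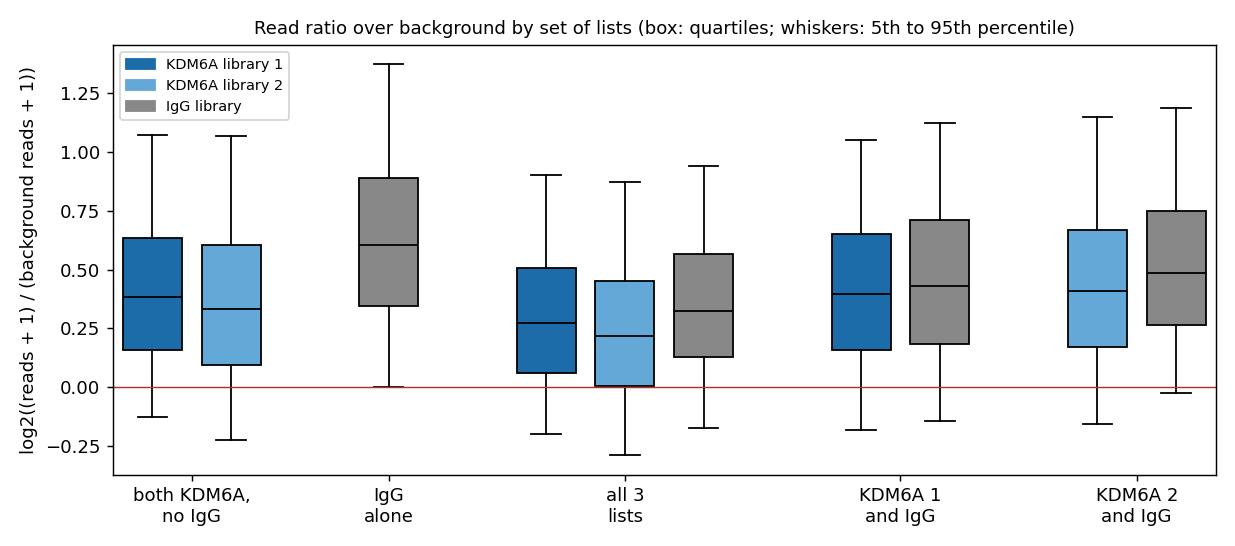
Read ratio over background on a log2 scale by set of lists and library (boxes are quartiles with the median, whiskers run from the 5th to the 95th percentile of regions). IgG at regions of IgG alone has the highest median, 0.60, and where KDM6A and IgG hold the same regions their boxes overlap over most of their length.

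At regions that all 3 lists held, KDM6A did not stand above IgG. The median read ratio was 0.27 in KDM6A 1, 0.22 in KDM6A 2 and 0.32 in IgG. Region by region, KDM6A 1 minus IgG had a median of -0.05 (quartiles -0.24 to 0.14) and KDM6A 2 minus IgG a median of -0.11 (-0.32 to 0.12). KDM6A was above IgG in 42.6% of regions for library 1 and in 36.5% for library 2. The median distance between a KDM6A library and IgG, without sign, was 0.19 and 0.24, and that between the 2 KDM6A libraries was 0.24. The distance between the antibodies was thus no larger than that between the KDM6A libraries. For KDM6A 1 and IgG the background library is read as common, so their distance is not like the other 2.

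On the deposited fold, which scales the reads for depth, the same differences had medians of 0.00 for both libraries, and 50.2% and 49.6% of regions were above 0. The read ratio carries no depth scaling, and the constants that relate it to the deposited fold were 1.07, 1.12 and 1.04 for KDM6A 1, KDM6A 2 and IgG. Both KDM6A libraries were at least 1.5-fold above IgG in 12 of 2874 regions (0.418%) and at least 1.5-fold below it in 64 (2.23%) by read ratio. By deposited fold the counts were 19 (0.661%) and 36 (1.25%). Across the regions, Pearson's r of the read ratios was 0.40 between the KDM6A libraries, 0.57 between KDM6A 1 and IgG and 0.44 between KDM6A 2 and IgG. KDM6A 1 and IgG are read as having a background library in common, so that r may partly be of the background with itself.

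**Figure D3:**
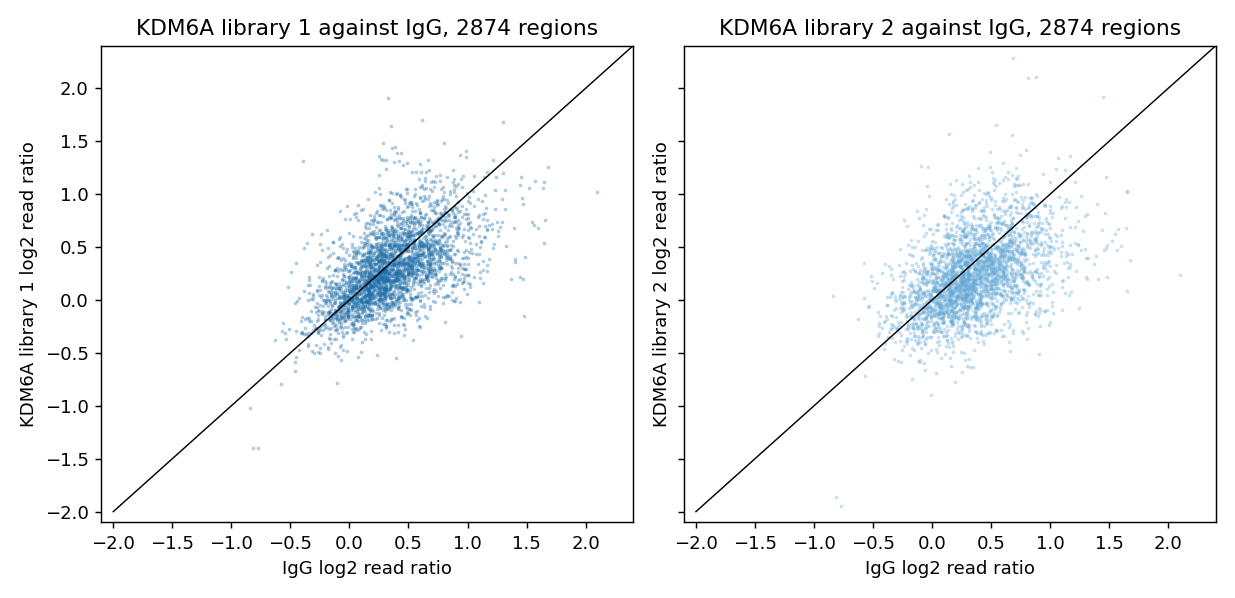
Log2 read ratio of each KDM6A library (vertical axis) against that of IgG (horizontal axis) at the 2874 regions held by all 3 lists, 1 point per region, with the line of equal values. The points straddle the line in both panels, with 42.6% of regions above it for library 1 and 36.5% for library 2.

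Reads could be compared over the same bases without any background in the 52 intervals that KDM6A 1 and IgG called with identical ends. Many of these had a deposited fold under 1 in KDM6A 1, which only 1641 of its 24177 intervals had. Only 44 lay on the main chromosomes, and the others on mitochondrial DNA and the unplaced contig JH584304. At chr12:3109801-3110200 there were 18172 KDM6A and 15972 IgG reads over 16314 background reads. Of the 52, KDM6A had more reads in 21 and IgG in 31. The median log2 of KDM6A over IgG reads was -0.08 (range -0.68 to 0.51), or -0.04 after scaling by the depth constants. In 559 pairs of intervals with at least 80% reciprocal overlap it was -0.06, or -0.01 scaled. KDM6A was higher in 202 of those pairs and IgG in 353 before scaling. In such pairs the median distance in log2 deposited fold was 0.24 between the KDM6A libraries, 0.22 between KDM6A 2 and IgG and 0.13 between KDM6A 1 and IgG. Only KDM6A 1 and IgG are read as having a background library in common, so the last distance is not like the others.

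The named regions with the strongest ratio in both KDM6A libraries and no IgG interval began with Ghr. They were taken from regions with at least 30 background reads in each library and a named protein-coding gene overlapping or within 1 kb, so their place in genes was set by that choice. Ghr, the growth hormone receptor (chr15:3467001-3473400), had 112 reads over 46 background reads in KDM6A 1 and 156 over 69 in KDM6A 2, log2 ratios of 1.27 and 1.17. Both libraries were thus a little over 2-fold above background there, and no control KDM6A list held the region.

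The other named genes were of varied function, with ratios between 0.95 and 1.43 in either library. They were Kcnc2, a voltage-gated potassium channel, Cpne8, a calcium-dependent membrane-binding protein, Itga2, a collagen-binding integrin, Sema3a, a secreted axon guidance cue, and Arfgef1, an exchange factor for ARF GTPases. The others were Rspo3, which strengthens Wnt signalling, Lrp1b, a member of the LDL receptor family, Hcrtr2, an orexin receptor, and Cd53, a tetraspanin of leukocytes. Control KDM6A lists held the regions at Sema3a, Arfgef1, Rspo3 and Hcrtr2, and neither held the other named ones. Of the 29 regions with a log2 ratio of at least 1 in both KDM6A libraries, 5 had a control interval (17.2%, 5.85 to 35.8), compared with 58.6% of all 3070. Their median width was 4200 bp, against 5800 bp for the whole set.

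The 8 named regions of IgG alone were farther above background than those of KDM6A, though they were ranked by 1 library and from a larger set. Camk2d, a calcium/calmodulin-dependent kinase (chr3:126809401-126812200), had 118 IgG reads over 31 background reads, a log2 ratio of 1.89. Cntnap5a, a contactin-associated protein (chr1:115746801-115749600), had 131 over 35, a ratio of 1.87. Ctnna3, an adhesion junction catenin (chr10:63519601-63522000), was the lowest of the 8 at 114 over 33, a ratio of 1.76. Between them lay Fam172a, Sgcz (a sarcoglycan), Vmn2r108 (a vomeronasal receptor of a multigene family), Sema3a and Rgs7bp (a partner of G-protein regulators). Sema3a held a region of either kind at different places, chr5:13266601-13272400 with both KDM6A lists and chr5:13363801-13366400 with IgG alone. At the latter IgG had 116 reads over 32, a ratio of 1.83.

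At regions of all 3 lists, the strongest differences in either direction often came from intervals of unequal length. Ano3, an anoctamin of excitable cells (chr2:110657801-110665600), had 84 over 49 reads in KDM6A 1 and 97 over 40 in KDM6A 2, against 125 over 128 in IgG. The differences from IgG were 0.80 and 1.29, with intervals of 2200 and 2600 bp for KDM6A and 4400 bp for IgG. Olfr1153, an olfactory receptor, stood 0.93 and 0.52 above IgG, and Wls, which Wnt proteins need for secretion, 0.74 and 0.48. The IgG interval covered 5000 bp at Wls and each KDM6A interval 1800 bp. Exoc6b (an exocyst subunit), Fsd1l, Tial1 (an RNA-binding protein), Rpe65 (the retinoid isomerase of the eye) and Plekhm1 (a lysosomal adaptor) were the others above IgG.

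In the reverse direction Tmem196 came first, at -1.17 and -1.03 from IgG. Enah, an actin regulator needed in neural tube closure (chr1:181925201-181934600), had 202 over 224 reads in KDM6A 1 and 114 over 79 in KDM6A 2, against 105 over 37 in IgG. Its differences were -1.63 and -0.96, and the IgG interval covered 2000 bp against 6600 and 3000 bp. Zpbp, a sperm protein, followed at -0.92 and -1.09. Mtmr3, a phosphoinositide phosphatase, was 1 of the 2 named genes of this direction whose IgG interval, 5000 bp, was not the shortest of the 3. It had 258 over 127 reads in IgG against 171 over 157 and 119 over 121 in the KDM6A libraries. Tenm2, a teneurin adhesion protein, and Efcab5 completed the 6. The part of interval length in these differences was not tested.

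The 2 KDM6A libraries of control cells, which took no part in forming the sets, together recovered regions of both KDM6A lists about as often as regions of 1 KDM6A list and IgG. At least 1 control list held 58.6% (56.9 to 60.4) of regions of both KDM6A lists without IgG. For regions of KDM6A 1 and IgG it was 56.0% (54.1 to 58.0), and for those of KDM6A 2 and IgG 57.6% (55.8 to 59.3). Regions of IgG alone were held in 30.9% (30.1 to 31.7), near the 30.1% and 31.1% of regions of KDM6A 1 alone and KDM6A 2 alone. Regions of all 3 lists were held in 85.8% (84.5 to 87.1). Recovery by a control KDM6A library in this sense was higher the more lists held a region, and for regions of exactly 2 lists it was about the same with and without IgG.

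Width moved with these shares. The median width was 5800 bp for each set of exactly 2 lists, 3600 bp for IgG alone and 9400 bp for all 3, since merging makes a region wider. Among regions of 5 to 10 kb the shares were 60.02% for both KDM6A lists, 56.6% for KDM6A 1 and IgG and 58.5% for KDM6A 2 and IgG. In the same width range they were 37.7% for IgG alone and 79.9% for all 3. Taken one at a time, control list 1 held 41.8% and control list 2 held 34.4% of regions of both KDM6A lists without IgG. For KDM6A 2 and IgG these were 42.7% and 33.6%, and for KDM6A 1 and IgG 44.3% and 25.6%. Control list 2 thus held fewer regions of KDM6A 1 and IgG (23.9 to 27.3) than of both KDM6A lists (32.7 to 36.1).

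**Figure D4:**
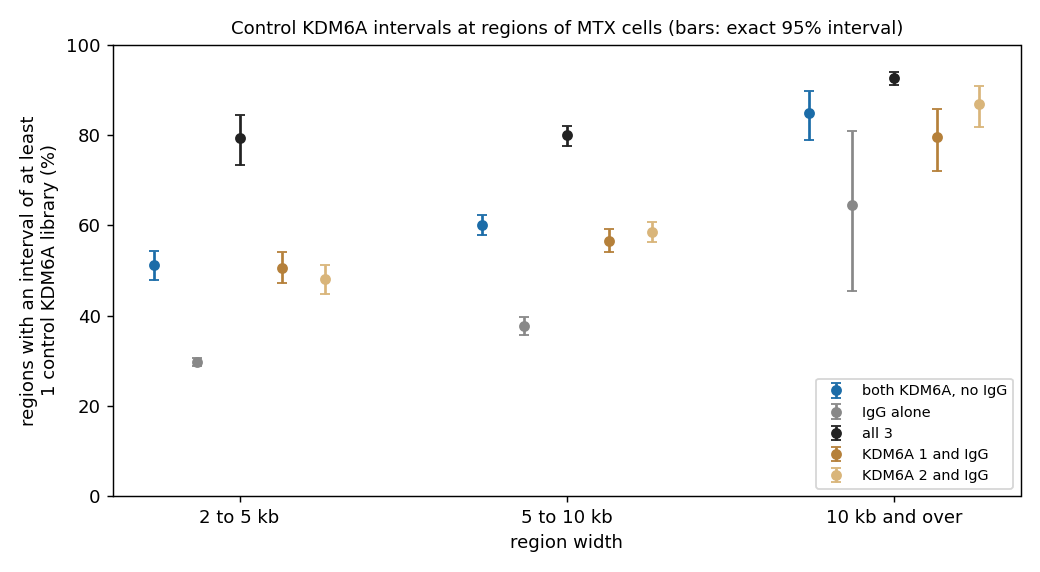
Share of regions (%) with an interval of at least 1 control KDM6A library, by region width and set; bars are exact 95% intervals (counting error only). In the 3 width ranges shown, from 2 kb up, the sets held by exactly 2 lists lie close together, for 5 to 10 kb between 56.6% and 60.02%, with IgG alone below and all 3 lists above.

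A small share of each set lay at gene ends. The share of the genome within such windows was not computed, so neither depletion nor excess is read from this. Of regions with both KDM6A lists and no IgG, 3.10% had their midpoint within 1 kb of either end of a protein-coding gene, compared with 3.99% for IgG alone and 4.48% for all 3. A further 53.3%, 42.3% and 53.7% had it inside a gene. The share at gene ends went with the library: it was 5.76% for KDM6A 1 and IgG and 6.18% for KDM6A 1 alone, but 2.35% for KDM6A 2 and IgG and 2.24% for KDM6A 2 alone. IgG alone thus lay between KDM6A 1 alone and KDM6A 2 alone. The median distance of a midpoint to the nearest gene end was 33.8 kb, 54.9 kb and 30.7 kb in the 3 sets.

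Chromosome 11 held 25.1% of regions of both KDM6A lists, 38.7% of those of all 3 and 7.27% of those of IgG alone. It also held 22.6% of the regions of KDM6A 2 and IgG and 16.2% of those of KDM6A 1 and IgG. The background libraries were denser there as well. The median background reads per kb were 30.0 on chromosome 11 against 24.4 on other autosomes in list KDM6A 1, 32.8 against 24.6 in KDM6A 2 and 29.2 against 23.3 in IgG. The part of background density in the overlap was not tested. Without chromosome 11, the sets of both KDM6A lists, KDM6A 1 with IgG and KDM6A 2 with IgG had 2299, 2124 and 2410 regions, and at regions of all 3 lists outside it KDM6A minus IgG had medians of -0.06 and -0.09.

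Regions of both KDM6A lists without IgG lay at the ends of few protein-coding genes. Of 21887 protein-coding genes, 359 (1.64%) had such a region within 1 kb of either end, 1316 (6.01%) had one of IgG alone and 544 (2.49%) one of all 3 lists. For the yardstick sets the shares were 2.12% for KDM6A 1 and IgG, 1.47% for KDM6A 2 and IgG, 9.08% for KDM6A 1 alone and 5.56% for KDM6A 2 alone. Across 12 lists of 401 genes in all (chromatin, pluripotency, folate, neural tube, lineage, p53, Wnt, fibroblast, germline, Hox and ribosomal genes), 2 (0.499%) had a region of both KDM6A lists. The exact interval of that share (0.0605 to 1.79) included the share of all genes, 1.64%. For IgG alone, a set with more regions, the count was 38 (9.48%) and for all 3 lists 9 (2.24%). For KDM6A 1 and IgG it was 20 (4.99%) and for KDM6A 2 and IgG 2 (0.499%).

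The 2 genes were Gsk3b and Atm. Gsk3b, whose promoter is printed above, had 87 over 83 reads in KDM6A 1 and 120 over 101 in KDM6A 2, log2 ratios of 0.07 and 0.25. Atm, the kinase that signals DNA double-strand breaks (chr9:53436801-53442400), had 109 over 98 and 106 over 56, ratios of 0.15 and 0.91. In both genes the immunoprecipitate was close to background in KDM6A 1.

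Pluripotency genes were found about as often with IgG as with KDM6A 1. Of 30 genes, 16 (53.3%) had a region of KDM6A 1 at an end, 5 (16.7%) one of KDM6A 2 and 15 (50%) one of IgG, compared with 14.5%, 10.5% and 11.5% of all genes. None had a region of both KDM6A lists without IgG. Those with a region of IgG alone were Sox2, Klf2, Prdm14, Utf1, Tet1 and Gdf3. Klf2 and Tet1 also had a region of KDM6A 1 alone. Klf2, a factor of naive pluripotency, had 44 IgG reads over 2 background reads in a short interval (chr8:72321201-72321600), a log2 ratio of 3.91. With so few background reads the ratio of 22 has an exact counting interval of 5.74 to 187.3. Prdm14, which represses DNA methylation genes, had 116 over 65 (0.83), and Utf1, a chromatin-associated stem cell factor, had 72 over 43 (0.73). Sox2, whose promoter is printed above, had 335 over 302 (0.15).

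Nanog, Tfcp2l1 and Zfp281 had regions of all 3 lists. Nanog had 105 over 84 reads in KDM6A 1, 98 over 107 in KDM6A 2 and 139 over 130 in IgG, ratios of 0.32, -0.13 and 0.10. Tfcp2l1, a factor of naive pluripotency, was below background in all 3 libraries, at -0.34, -0.27 and -0.35. Zfp281, a zinc finger regulator of pluripotency, had -0.04, 0.35 and 0.00. In none of the 3 genes did both KDM6A libraries exceed IgG by 1.5-fold.

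None of the 12 genes of the KMT2C/KMT2D complex and the KDM6 demethylases had a region of both KDM6A lists or of all 3. Over all genes these shares were only 1.64% and 2.49%, so nothing is read from their absence in so short a list. Kmt2c, the methyltransferase of the complex, and Rbbp5, one of its core subunits, had a region of IgG alone, with ratios of 0.44 and 0.18. Kmt2c, Kdm6b and Wdr5 (25% of the 12) had a region of KDM6A 1 alone, beside 9.08% of all genes. Kdm6a and its Y-linked relative Uty held no region over the whole gene, but the X chromosome had only 2, 8 and 3 intervals in KDM6A 1, KDM6A 2 and IgG and the Y chromosome 5, 4 and 4, so nothing is read from this. Kdm6b, the related demethylase, held 3, with KDM6A 1 alone or KDM6A 1 and IgG. Of 26 Polycomb genes, 5 (19.2%) had a region of IgG alone (Pcgf1, Epop, Cbx7, Phc1 and Jarid2). Another 2 (7.69%), Mtf2 and Suz12, had one of all 3, and none had one of both KDM6A lists. The shares of all genes were 6.01%, 2.49% and 1.64%. KDM6A 1 alone had 4 Polycomb genes (15.4%), Eed, Rnf2, Cbx2 and Rybp, beside 9.08% of all genes. With regions of any kind, KDM6A 1 had 7 of the 26, KDM6A 2 had 2 and IgG had 8. Pcgf1, a subunit of a variant Polycomb complex, had 84 IgG reads over 38, a ratio of 1.12. Mtf2, an accessory subunit of the complex that methylates lysine 27, had ratios of 0.42, 0.29 and 0.36 in KDM6A 1, KDM6A 2 and IgG. Suz12, a core subunit of the same complex, had 0.04, 0.45 and 0.05 at one of its regions (chr11:80030201-80037600).

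Folate and developmental genes were near or under the share of all genes, 11.5%, in the regions of IgG. Of folate genes 11.1% had one, of neural tube genes 7.69% and of lineage genes 10.8%. For KDM6A 1 these shares were 25%, 15.4% and 5.41%, against 14.5% of all genes. The exact interval of its folate share, 12.1 to 42.2, included the share of all genes. For KDM6A 2 they were 8.33%, 0% and 5.41%, against 10.5%. Of 36 folate and one-carbon genes, Mthfd1 and Mthfd2, which interconvert folate one-carbon units, had a region of IgG alone. Shmt1, which takes the one-carbon unit from serine, had regions of all 3 at both ends. Ratios in KDM6A 1, KDM6A 2 and IgG were 0.42, -0.17 and 0.19 at one (chr11:60784601-60791600). They were 0.35, -0.21 and -0.45 at the other (chr11:60806801-60812600). None had a region of both KDM6A lists without IgG. Of 39 neural tube genes, Zic2 and Dvl2 had a region of IgG alone, and Zic2 also one of KDM6A 1 and IgG. Of 37 lineage regulators, Cdx2, Nkx2-5 and Nodal had a region of IgG alone. Neither list had a gene with a region of both KDM6A lists. Among 28 p53 and DNA damage genes, 5 (17.9%) had a region of IgG alone (Xpc, Mdm2, Ccng1, Rrm2b and Gadd45a). Ccng1 also had a region of KDM6A 1 and IgG. KDM6A 1 alone had 6 of the 28 (21.4%), beside 9.08% of all genes. With regions of any kind, KDM6A 1 had 8, KDM6A 2 had 3 and IgG had 7. Only Atm (3.57%) had a region of both KDM6A lists. The shares of all genes were 6.01% for IgG alone and 1.64% for both KDM6A lists. Of 39 Wnt genes, Tcf7l2 had a region of IgG alone and another of KDM6A 1 alone, and Tcf7 had one of all 3. Of 39 Hox genes 4 (10.3%) had a region of IgG alone (Hoxa5, Hoxa6, Hoxb5 and Hoxb6). Of 82 ribosomal protein genes 6 (7.32%) had one, beside 6.01% of all genes. Hoxa5 and Hoxa6 shared 1 region, and Hoxb5 and Hoxb6 shared another. Fap, of 14 fibroblast markers, and Tdrd1, of 20 germline genes, also had one of IgG alone.

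Receptor and zinc finger families, whose members are near copies of each other so that reads may be split among them, were counted separately. Of 1109 olfactory receptor genes, 35 (3.16%) had a region of both KDM6A lists, 100 (9.02%) one of IgG alone and 44 (3.97%) one of all 3. Olfr954 had ratios of 1.01 and 0.90 in the KDM6A libraries, and Olfr1225 had 124 IgG reads over 38, a ratio of 1.68. Of 353 vomeronasal receptor genes the counts were 6 (1.70%), 18 (5.10%) and 16 (4.53%), and of 394 Zfp zinc finger genes 11 (2.79%), 37 (9.39%) and 24 (6.09%). Beside the 1.64%, 6.01% and 2.49% of all genes, olfactory genes had higher shares in the 3 compared sets. Zfp genes had higher shares for IgG alone and all 3, and vomeronasal genes for all 3 (2.61 to 7.26). For Zfp genes with both KDM6A lists the exact interval (1.40 to 4.94) included the share of all genes. The same held for vomeronasal genes with both KDM6A lists (0.626 to 3.66) and with IgG alone (3.05 to 7.94). Family members lie in clusters, and some shared 1 region, such as Zfp981 with Zfp993 and Vmn2r111 with Vmn2r112. These intervals count each gene as separate and do not allow for that, so the higher shares are descriptions only. Zfp763 had ratios of 0.46 and 1.26 in the KDM6A libraries and Zfp148 had one of 1.62 in IgG. IgG alone, which held the most regions, was the most frequent of the 3 compared sets in each family, as over all genes.

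GC content at gene starts followed the library as well. The median over all promoters was 55.6% in the 250 bases before the start. It was 57.6% for the 143 starts in regions of both KDM6A lists, 57.2% for the 576 of IgG alone and 52.8% for the 289 of all 3. It was 59.2% for KDM6A 1 and IgG and 59.6% for KDM6A 1 alone, but 42.8% for KDM6A 2 and IgG and 46.0% for KDM6A 2 alone. GGGCGG was present in 48.3%, 46.9% and 42.2% of starts of the 3 compared sets, in 54.1% of those of KDM6A 1 alone and in 22.4% of those of KDM6A 2 alone. TATAAA was present in 24.8% of starts of KDM6A 2 alone. The 2 KDM6A libraries thus recovered gene starts of different base composition. Starts of IgG alone, at 57.2%, lay between all promoters and KDM6A 1 alone, while those of KDM6A 2 and IgG were at 42.8%. The part of base composition in the gene counts was not tested.

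**Figure D5:**
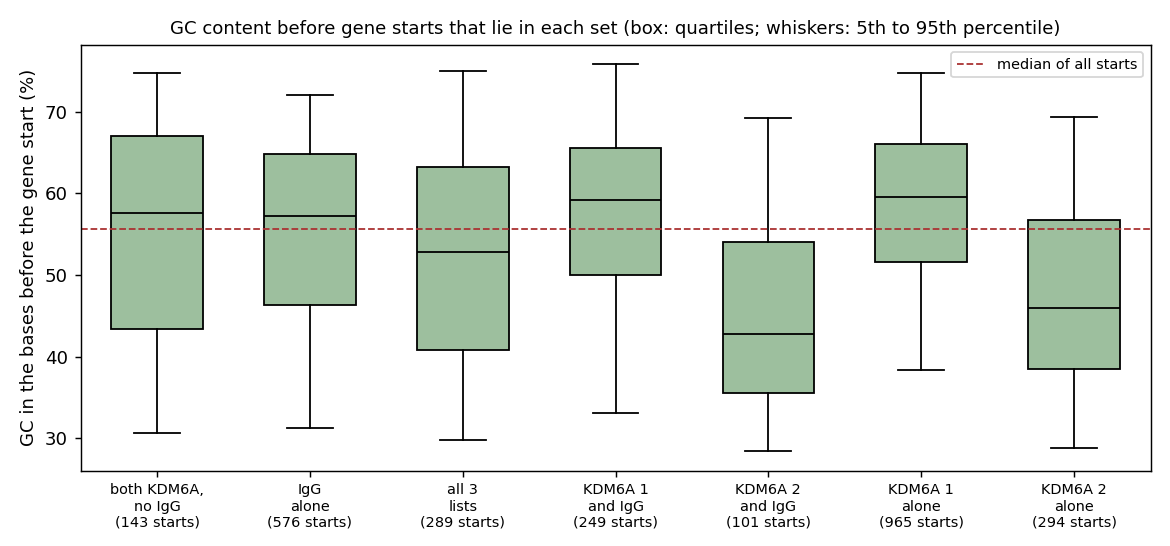
GC content (%) of the 250 bases before gene starts that lie in each set of regions (boxes are quartiles with the median, whiskers the 5th to 95th percentile, dashed line the median of all starts). Sets with KDM6A 1 but not KDM6A 2 lie above the line, at 59.2% and 59.6%, and sets with KDM6A 2 but not KDM6A 1 lie below it, at 42.8% and 46.0%.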

How the data were processed

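ChIP-seq interval lists of 5 libraries were used; the inputs served only as the authors' background. Bowtie2 and the mm10 build are named in the submitters' processing notes without a version. The interval caller was not given in the sources used here. Every deposited list had 8 columns without a header and was called per library, with ends on a 200 bp grid. The deposited counts are whole immunoprecipitated and background reads per interval, without normalization. The deposited fold is a ratio of those reads scaled by 1 constant per list, and the deposited p-values are raw and adjusted. Full library depth is unknown, since the lists hold only reads within intervals.

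Intervals were merged where they touched or overlapped, reads were summed per library and region, and log2((reads + 1)/(background + 1)) was taken, with Python 3.11.15, pandas 2.3.3, numpy 2.4.6, scipy 1.17.1 and matplotlib 3.10.9. Merging and read sums were tested on simulated data. Regions were set against protein-coding genes of RefSeq (GRCm38.p6) with 1 kb windows at gene ends, and promoters against gene starts.

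Named regions were those with at least 30 background reads in each library holding them and a named gene: the 12 highest by the smaller KDM6A ratio, the 8 highest of IgG alone, and the 8 highest and 6 lowest by KDM6A minus IgG. Some of these are not reported here. Named list genes were taken by rank, up to 3 per list and set, with Sox2 added after its values were seen, and other members are only listed. The regions, gene lists and alternatives were chosen with earlier results of these data known. Alternatives varied the interval filter, list length, merging, pseudocount, scale, gene window and chromosomes, and left out each KDM6A library.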

Additional observations from a re-analysis of the deposited data

How the results depend on the processing

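The median difference between KDM6A and IgG at regions of all 3 lists, averaged over the KDM6A libraries, was -0.08. It was -0.025 with lists of equal length and -0.0012 on the deposited fold, while the median ratio on that scale was 0.50 for KDM6A at regions of both lists, 0.39 for KDM6A and 0.39 for IgG at regions of all 3, and 0.66 for IgG alone. Regions 1.5-fold above IgG numbered 12, and 2 with an adjusted p under 0.05, 0 with the better 50% of each list and 19 by fold. Those below numbered 64, and 32, 12 and 36, with 32 for equal lengths and 27 without chromosome 11.

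Regions of both KDM6A lists fell to 991 in the better 50%, IgG alone to 8598, and all 3 lists to 463, with 1610 under the adjusted p and 1762 without chromosome 11. Gene counts for both KDM6A lists, IgG alone and all 3 were 70, 519 and 44 in the better 50%, 173, 669 and 293 at gene starts alone and 1410, 3862 and 1165 over whole genes. For both KDM6A lists and all 3 they were 200 and 207 under the adjusted p and 206 and 291 with equal lengths, and all 3 gave 295 without chromosome 11.

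Control lists held regions of both KDM6A lists and of all 3 in 55.7% and 83.2% under the adjusted p and 54.0% and 77.3% in the better 50%. For both KDM6A lists, IgG alone and all 3 these shares were 54.4%, 34.0% and 84.2% with equal lengths and 52.1%, 29.1% and 81.5% without chromosome 11. Merging across 1 kb gave 56.6% for both KDM6A lists and 29.5% for IgG alone.

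Leaving out 1 KDM6A library turns the sets into those of the other library and IgG. Regions without IgG then numbered 18016 to 22073, those with IgG 5478 to 6052 and those of IgG alone 16054 to 16816, held by a control list in 34.9% to 35.04%, 70.6% to 71.0% and 34.9% to 36.2%. Regions 1.5-fold above IgG were 178 to 306 and below 306 to 644, the median difference was -0.10 to -0.04, and genes were 1499 to 2303 without IgG, 766 to 894 with it and 1577 to 1711 for IgG alone. Of 127 values in all, main ones aside, 65 stayed near the main value. Main chromosomes only, and reciprocal pairs over the whole lists for the difference between KDM6A and IgG, were chosen after seeing the data.

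No paired analysis was possible because the KDM6A and IgG groups have only 1 replicate number in common. With 1 IgG library there is no spread for IgG, and lists give reads only within intervals, so depth at regions a list lacks is unknown. A region missing from the IgG list is not shown to lack IgG reads.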

Other observations

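Outside the main chromosomes, mitochondrial DNA was held by all 3 lists with fewer immunoprecipitated than background reads. Over positions 1 to 6600 the deposited fold was 0.407 in KDM6A 1, 0.290 in KDM6A 2 and 0.606 in IgG, and over positions 10801 to 16200 it was 0.407, 0.308 and 0.590. The unplaced contig GL456239 had a region of all 3 lists with folds of 1.10, 1.22 and 1.10. The highest smaller ratio of both KDM6A lists without IgG lay on chromosome 3 at 60202201 to 60204400, with no named gene, with 90 reads over 18 in KDM6A 1 and 58 over 11 in KDM6A 2. Those background counts are under the minimum of 30 used for named regions, and neither control list held it.

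Among protein-coding genes, 3168 (14.5%) had a region of any kind from KDM6A 1 at an end, 2308 (10.5%) from KDM6A 2 and 2516 (11.5%) from IgG. Across the 12 pathway lists the shares were 21.2%, 5.99% and 16.7%. Hox genes had 10 with KDM6A 1, 4 with IgG and 0 with KDM6A 2, of 39.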
